A study of Mus musculus with 304 samples.

Results

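The 9 genes described here encode the subunits of the AMPA and kainate classes of ionotropic glutamate receptor: Gria1, Gria2, Gria3 and Gria4 for AMPA receptors, and Grik1, Grik2, Grik3, Grik4 and Grik5 for kainate receptors. They were chosen by symbol, with earlier results of these data known, as 9 of the 22800 genes counted in single dentate granule cells of mice. The cells were sampled by patch-RNAseq, in which the cytosol of 1 recorded cell is drawn into a glass pipette and sequenced. The study asked how granule cells changed after kainic acid, itself an agonist of these receptors, and after viral expression of Id2, a transcriptional regulator of the helix-loop-helix class.

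The groups were 29 cells taken 14 days after a hippocampal microinjection of 70 nl of 5 mM kainic acid, 58 cells taken 1 day after the same injection from the side labelled ipsilateral, 71 cells taken 1 month after an AAV carrying Id2, 59 cells taken 1 month after an AAV carrying GFP, and 31 control cells from mice that had no injection. The labels do not give the side of the day 14 cells. Strain, age, AAV promoter and animal are not given either, so each group counts as 1 sample, cells cannot be treated as replicates of a condition, and no p-value was computed. Counts per cell ran from 32487 to 27708910 reads. The median cell had 7615492 reads at day 14, 6834546 at day 1, 3317227 with the Id2 virus, 3957794 with the GFP virus and 1738610 in control cells. Levels are counts per 1000000 reads (CPM) of the summed reads of a group. Intervals are exact 95% intervals. Those of levels cover read counting error only, and those of shares cover only the sampling of cells within a group. A gene was called higher or lower where CPM plus 1 differed by 2-fold or more. Calls were made among measured genes, those that reached 5 CPM in a group and had reads in 20% or more of some group's cells. Id2 itself stood at 37369 CPM in Id2 virus cells, against 93.2 CPM in GFP virus cells.

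AMPA receptors are tetramers that carry most of the fast excitatory current, and the presence of the Gria2 subunit in its edited form makes them nearly impermeable to calcium. Kainate receptors are also tetramers. Grik1, Grik2 and Grik3 can form channels alone, whereas Grik4 and Grik5 bind kainate tightly but need a partner from the first set to form a working channel. In the hippocampus the Grik2, Grik4 and Grik5 subunits are known for slow currents where granule cell axons, the mossy fibres, contact CA3 pyramidal cells.

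The reference transcripts of the 9 genes (GENCODE M21, build GRCm38) are shown over the pore loop, because its glutamine codon is what ADAR2 recodes to arginine in Gria2 and, in part, in Grik1 and Grik2. Each run is the coding strand, 5′ to 3′, 33 bases long, with that glutamine codon in capitals:
Gria1: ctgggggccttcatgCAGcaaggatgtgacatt
Gria2: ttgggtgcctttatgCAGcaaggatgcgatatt
Gria3: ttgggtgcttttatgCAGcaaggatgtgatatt
Gria4: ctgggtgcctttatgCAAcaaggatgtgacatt
Grik1: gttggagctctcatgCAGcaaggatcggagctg
Grik2: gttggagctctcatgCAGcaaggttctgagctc
Grik3: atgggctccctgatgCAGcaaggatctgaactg
Grik4: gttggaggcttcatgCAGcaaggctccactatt
Grik5: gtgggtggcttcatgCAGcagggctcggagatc
The 3 other AMPA subunits shared 28 to 31 of these 33 bases with Gria2, and the 5 kainate subunits shared 21 to 24. In Gria2 the codon is number 607 from the start codon. The codon is exonic and coding in all 9 genes. The deposited counts per gene hold no base calls, so edited and unedited transcripts could not be told apart, nor could splice forms such as flip and flop.

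On GRCm38, Gria1 lies at chr11:57011387-57330244 on the plus strand, Gria2 at chr3:80681450-80802835 on the minus strand, Gria3 at chrX:41400854-41678601 on the plus strand and Gria4 at chr9:4417896-4796234 on the minus strand. Grik1 lies at chr16:87895900-88290265 on the minus strand, Grik2 at chr10:49094833-49788766 on the minus strand, Grik3 at chr4:125490700-125714173 on the plus strand, Grik4 at chr9:42518135-42944493 on the minus strand and Grik5 at chr7:25009849-25072346 on the minus strand. Gria4 and Grik4 share a chromosome but not a locus. The union of annotated exons was between 5.168 kb for Grik5 and 15.548 kb for Gria2, and levels of different subunits are compared below only as CPM per kb of that length.

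The 10 granule cell markers all had reads in every group and summed to 1427 CPM in day 14 cells, 1569 CPM in day 1 cells, 2710.5 CPM in Id2 virus cells, 3869.7 CPM in GFP virus cells and 3692 CPM in control cells. RNA of another cell type varied as well. The 14 microglia markers summed to 6227 CPM in day 14 cells, 755 CPM in day 1 cells, 578 CPM in Id2 virus cells, 175 CPM in GFP virus cells and 3489 CPM in control cells. They reached 1000 CPM in 20 of 29, 7 of 58, 11 of 71, 2 of 59 and 18 of 31 cells of these groups in the same order. Astrocyte markers summed to 159 to 429 CPM, oligodendrocyte markers to 144 to 373 CPM and CA pyramidal cell markers to 245 to 730.2 CPM over the 5 groups. Kainate cells, virus cells and control cells bear different series of titles, and the title numbers of the day 1 and day 14 cells do not overlap. A possible batch and the group thus cannot be told apart. The same holds where GFP virus cells are set against control or kainate cells.

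Day 14 cells stood apart from control cells by a higher level of 1 AMPA subunit and lower levels of another AMPA subunit and 3 kainate subunits. Of the 9 genes, 8 were measured: Gria4 was higher and Gria1, Grik2, Grik3 and Grik4 were lower, with a median log2 ratio of -1.15. Among all 9469 measured genes 23.8% were higher and 15.8% were lower, and the median log2 ratio was 0.14. In either direction 39.6% of all genes were called. The 4 of 8 on the lower side thus exceeded the share of all genes, and the 1 of 8 on the higher side did not. Day 1 cells showed fewer calls: 0 of 8 measured subunits were higher and 2, Grik2 and Grik3, were lower, beside 23.2% higher and 15.2% lower (38.4% in all) among the 9079 measured genes. The median of the 8 was -0.82, against 0.17 over all measured genes. Both comparisons use the same 31 control cells. Grik2, Grik3 and Grik4 were also called lower in GFP virus cells over those controls, with log2 ratios of -1.06, -1.78 and -1.87. With GFP virus cells in place of control cells, only Gria1 and Gria4 kept their day 14 calls.

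**Figure D1:**
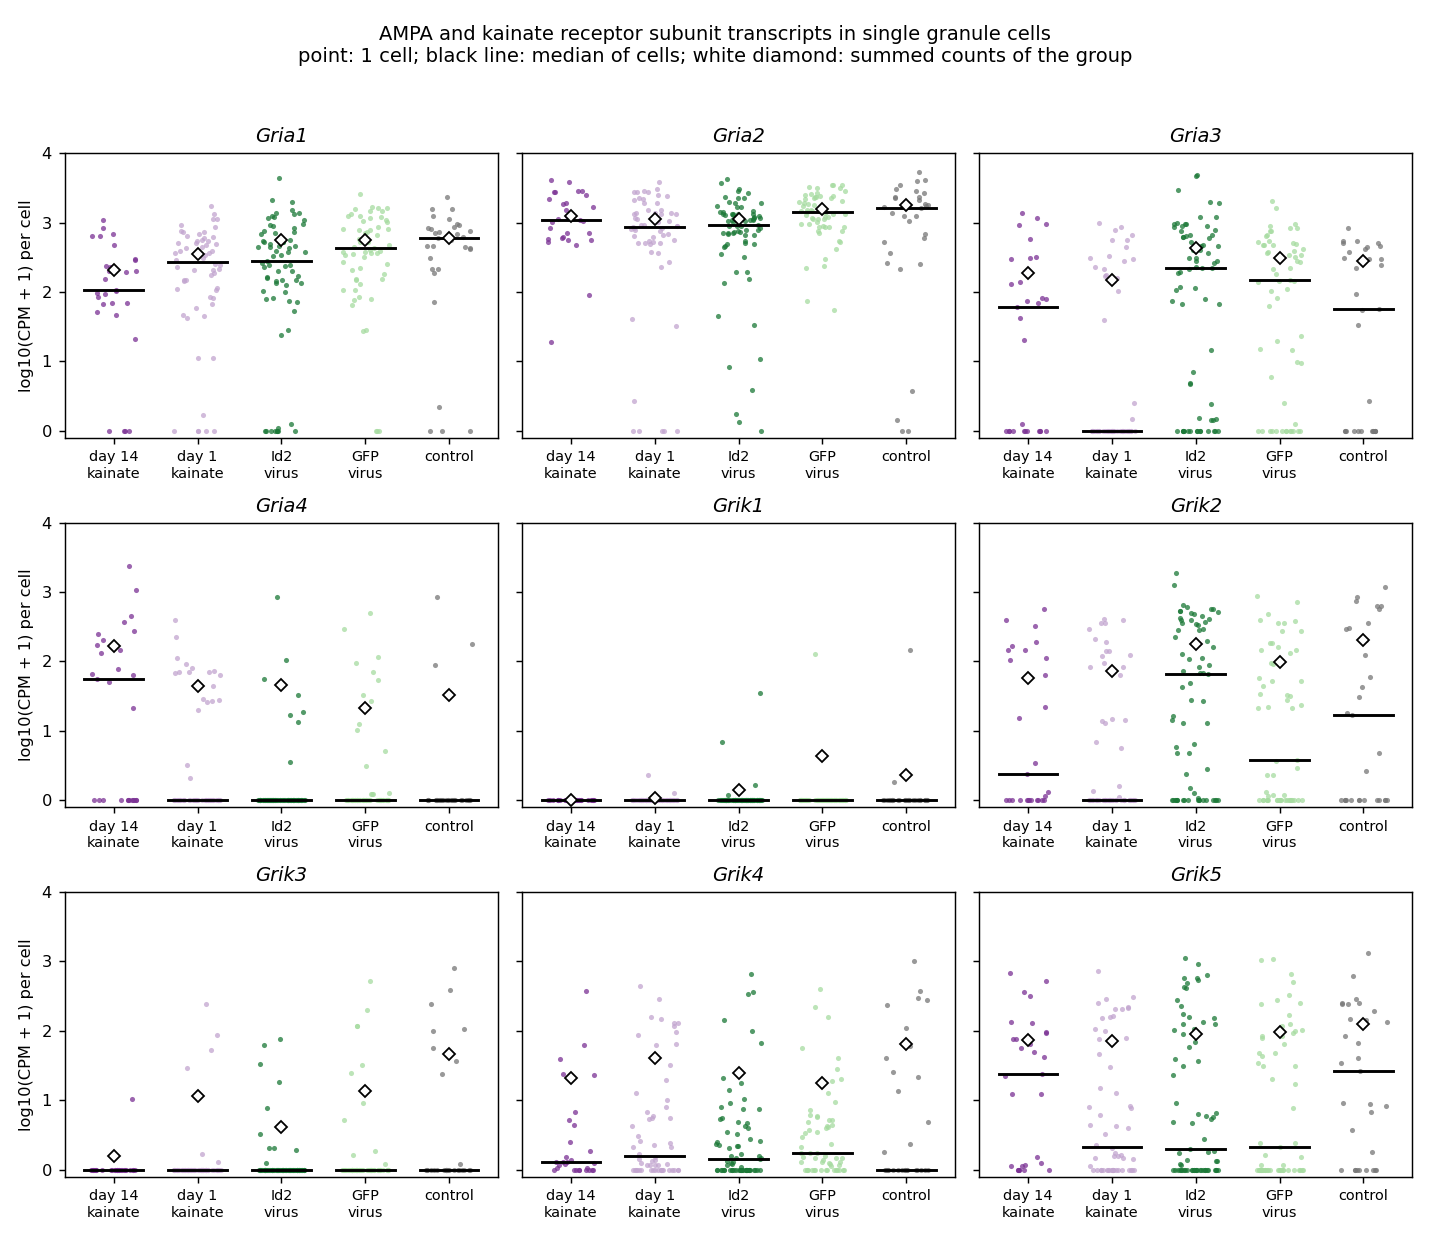
Level of each subunit gene in single cells as log10 of CPM plus 1, with the groups along the x axis; each point is 1 cell, the black line the median of cells and the white diamond the summed level of the group. Gria2 is high in nearly every cell of every group, Gria4 is above 0 in most cells of the day 14 group and in a minority of every other, and the cell ranges overlap between groups for every gene.

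Gria2, the subunit that limits calcium entry, had the highest level per kb of the 9 in day 14, day 1, GFP virus and control cells, at 79.1, 73.3, 101.45 and 114.5 CPM per kb, and stood behind Gria1 in Id2 virus cells, at 71.5 and 91.9 CPM per kb. Its cells had a lowest, median and highest level of 17.9, 1092 and 4035 CPM at day 14, 0, 874 and 3821 CPM at day 1, and 0, 1616 and 5336 CPM in control cells. Summed, Gria2 stood at 1230.2 CPM at day 14 and 1139 CPM at day 1, against 1781 CPM in control cells. The log2 ratios over control were -0.53 at day 14 and -0.64 at day 1, neither a 2-fold difference. After each cell was thinned to 100000 reads, a Gria2 read was present in 96.6% of day 14 cells and 91.4% of day 1 cells, against 89.7% of control cells (interval 72.6 to 97.8%). Gria2 was thus detected in nearly all cells of each of these groups.

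Gria1, the partner of Gria2 in much of the hippocampal AMPA receptor pool, was lower at day 14. The lowest, median and highest cell had 0, 105.7 and 1096 CPM at day 14, 0, 273 and 1727 CPM at day 1, and 0, 597 and 2305 CPM in control cells. The groups overlapped over most of their range, but the median day 14 cell was below the median cell of the other 2 groups. The summed level was 209 CPM at day 14 (interval 207 to 211) and 347 CPM at day 1, against 607 CPM in control cells (interval 601 to 613), a 2.91-fold lower level at day 14 and a 1.75-fold lower level at day 1. Cells with at least 100 CPM of Gria1 made up 16 of 29 at day 14 and 43 of 58 at day 1, against 26 of 31 control cells. The share of thinned cells with any Gria1 read differed little, at 86.2% at day 14 and 87.9% at day 1, against 89.7% in control cells. In the 9 day 14 cells below 1000 CPM of microglia markers Gria1 stood at 199 CPM, and in the 20 others at 213 CPM, so its level was about the same in both.

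Gria3, the AMPA subunit encoded on the X chromosome, split the cells into those with and those without reads. Its lowest, median and highest cell had 0, 60.1 and 1382 CPM at day 14, 0, 0 and 988 CPM at day 1, and 0, 55.3 and 841 CPM in control cells. Summed, it stood at 186 CPM at day 14 and 148 CPM at day 1, against 276 CPM in control cells, log2 ratios of -0.57 and -0.89. Of the thinned cells, 58.6% had a Gria3 read at day 14 and 34.5% at day 1, against 62.1% of control cells (interval 42.3 to 79.3%). The day 1 share has an interval of 22.5 to 48.1%, which overlaps that of control cells, although neither share lies within the interval of the other.

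Gria4, an AMPA subunit with fast kinetics known best from interneurons and from oligodendrocyte precursors, was the 1 subunit above control after kainate. Its lowest, median and highest cell had 0, 54.8 and 2332 CPM at day 14, 0, 0 and 389 CPM at day 1, and 0, 0 and 847 CPM in control cells. Most day 14 cells thus held Gria4 reads while most day 1 and control cells held none, although the ranges overlapped. The summed level was 165 CPM at day 14 (interval 163 to 166) and 43.01 CPM at day 1 (interval 42.4 to 43.6), against 31.5 CPM in control cells (interval 30.1 to 32.8). Day 14 was 5.23-fold above control (log2 ratio 2.35) and 3.83-fold above day 1 (log2 ratio 1.91), and day 1 was 1.37-fold above control (log2 ratio 0.44), which was no call.

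The difference in Gria4 lay in how many cells held it as much as in its summed level. At least 100 CPM of Gria4 was found in 11 of the 29 cells at day 14 (37.9%, interval 20.7 to 57.7%) and in 3 of the 58 at day 1 (5.17%, interval 1.08 to 14.4%), against 2 of 31 control cells (6.45%, interval 0.79 to 21.4%). Among thinned cells a read was present in 55.2% at day 14 and 29.3% at day 1, against 10.3% of control cells (interval 2.19 to 27.4%). All 16 thinned day 14 cells with Gria4 also had Gria2, and 14 of the 16 had Gria1. A single cell held 37.1% of the day 14 reads and another held 74.5% of the control reads. Without the highest cell of each group Gria4 stood at 106.4 CPM at day 14 and 24.8 CPM at day 1, against 8.25 CPM in control cells, and the log2 ratio of day 14 over control was 3.54. In control cells 22 with titles in the J series had 43.5 CPM and the 9 with other titles had 5.5 CPM.

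Cell types known for Gria4 were read beside it. The 7 oligodendrocyte precursor markers summed to 0.76 CPM at day 14 and 4.43 CPM at day 1, against 55.9 CPM in control cells, and Cspg4, Vcan, Olig2 and Sox10 were at 0 reads at day 14. The 10 interneuron markers summed to 1349.8 CPM at day 14 and 733 CPM at day 1, against 862 CPM in control cells. Of these, Pvalb, Sst, Vip, Lhx6 and Erbb4 were at 0 reads at day 14, 1072 CPM came from Gad1, which granule cells also transcribe, and 164 CPM from Cck. Gad2, which encodes the other enzyme for GABA synthesis, had 111.3 CPM at day 14 and 29.6 CPM at day 1, against 0.10 CPM in control cells. Like Gria4 it was highest at day 14, but at day 1 Gria4 was only 1.37-fold above control. In Id2 virus cells Gad2 had 0 CPM and Gria4 44.3 CPM. The part of Gad2 in the result was not tested. In the 9 day 14 cells below the 1000 CPM limit for microglia markers Gria4 stood at 287 CPM, and in the 20 others at 111.7 CPM, but the medians of cells were 20.2 and 70.1 CPM and 1 cell held 70.4% of the reads of the 9. In control cells the 13 below that limit had 83.7 CPM and the 18 others 2.7 CPM. Without the highest cell below the limit in each group, an alternative chosen after seeing the data, the 8 remaining at day 14 had 93 CPM, against 19.2 CPM in the 12 remaining controls, where it came from 1 cell. Of those 8 day 14 cells 4 had Gria4 reads, the median was 10.1 CPM and 1 cell held 72.5% of the reads. The day 14 level thus rested mostly on 1 cell there too.

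**Figure D2:**
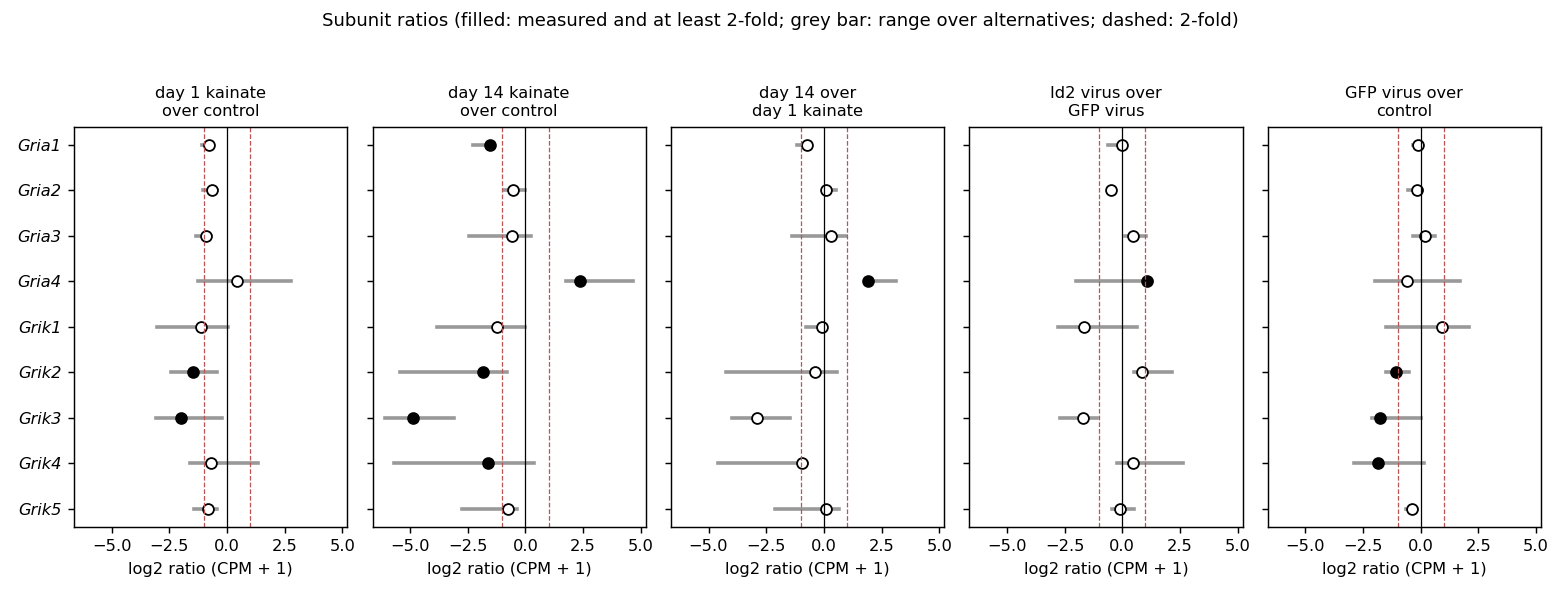
Log2 ratio of summed CPM plus 1 for each subunit (rows) in the 5 comparisons (panels, the group named first over the second); filled points are measured and at least 2-fold apart, open points are not, grey bars span all processing alternatives and dashed lines mark 2-fold. The bars of Gria4 and Gria1 stay beyond 2-fold in the day 14 over control panel, whereas those of Grik4 in that panel and of Gria4 in the Id2 over GFP panel cross 0.

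Among the kainate subunits that form channels alone, Grik2 had the highest level per kb in every group and was lower after kainate on both days. Its lowest, median and highest cell had 0, 1.4 and 569 CPM at day 14, 0, 0 and 405 CPM at day 1, and 0, 15.8 and 1187 CPM in control cells. Cells without reads were common in all of them, so the groups overlapped from 0 upward. Summed, Grik2 stood at 56.0 CPM at day 14 and 72.4 CPM at day 1, against 203 CPM in control cells, 3.63-fold and 2.81-fold lower. With GFP virus cells in place of control cells both calls were lost, with log2 ratios of -0.78 at day 14 and -0.42 at day 1. Of the thinned cells 41.4% had a Grik2 read at day 14 (interval 23.5 to 61.1%) and 31.03% at day 1 (interval 19.5 to 44.5%), against 58.6% of control cells (interval 38.9 to 76.5%). The intervals overlap, and they cover the sampling of cells within a group, not the spread between animals. Within the day 14 group Grik2 was uneven: 11.3 CPM in the 9 cells below the microglia limit and 75.4 CPM in the 20 others, and the part of that split in the result was not tested.

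Grik3, whose channels need high glutamate to open, was nearly undetected at day 14. All 148 of its day 14 reads came from 1 cell, at 9.58 CPM, and the other 28 cells had none. At day 1 it had reads in 6 of 58 cells with a highest level of 246 CPM, against 9 of 31 control cells with a highest level of 805 CPM. The median cell was at 0 CPM in each group. Summed, Grik3 stood at 0.57 CPM at day 14 and 10.54 CPM at day 1, against 45.3 CPM in control cells (interval 43.75 to 46.98), log2 ratios of -4.88 and -2.01. In the control group 1 cell held 62.8% of the reads. Without the highest cell of each group the level was 0 CPM at day 14 and 7.21 CPM at day 1, against 17.5 CPM in control cells, log2 ratios of -4.21 and -1.17, so both calls were kept. With GFP virus cells in place of control cells the log2 ratios were -3.10 at day 14, where Grik3 was then not measured and gave no call, and -0.22 at day 1, and without the microglia-rich cells they were -3.97 and -0.30. Day 14 stood below day 1 too, but Grik3 was not measured in that pair, since neither group had reads in enough cells.

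Grik1, the third of the channel-forming subunits, was close to absent from all 5 groups. It had 0 reads in the 29 day 14 cells, which allows a level of up to 0.01 CPM (exact interval), and 0.07 CPM at day 1, 0.41 CPM in Id2 virus cells, 3.41 CPM in GFP virus cells and 1.34 CPM in control cells. A single cell held all 757 GFP reads and 98.9% of the 90 control reads came from 1 cell. Grik1 was measured in none of the 5 comparisons, and no ratio is drawn from it.

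Of the partner subunits that bind kainate tightly, Grik5 had the higher level per kb in every group. Its lowest, median and highest cell had 0, 22.6 and 677 CPM at day 14, 0, 1.16 and 737 CPM at day 1, and 0, 25.1 and 1332 CPM in control cells. Summed, Grik5 stood at 73.96 CPM at day 14 and at 70.0 CPM at day 1, against 126.35 CPM in control cells, log2 ratios of -0.76 and -0.84, neither a 2-fold difference. Leaving cells out moved both past 2-fold: without the microglia-rich cells the day 14 log2 ratio was -2.21, with 26.7 CPM in the 9 day 14 cells below the limit and 94.5 CPM in the 20 others, and without the deepest 10% of cells the log2 ratios were -1.06 at day 14 and -1.43 at day 1. Grik4 had 0, 0.27 and 378 CPM in its lowest, median and highest cell at day 14, 0, 0.60 and 439 CPM at day 1, and 0, 0 and 1022 CPM in control cells. The control cells were read less deeply. Of the thinned cells 24.1% had a Grik4 read at day 14 and 29.3% at day 1, against 37.9% of control cells. Most cells of each group thus held only traces of Grik4, and the summed level rested on a few. That level was 19.9 CPM at day 14 and 39.7 CPM at day 1, against 63.9 CPM in control cells, log2 ratios of -1.64 and -0.68. The day 14 call depended on which control cells were used: the 22 J-titled controls had 86.6 CPM and the 9 others 15.01 CPM, and against those 9 alone the log2 ratio was 0.38.

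Day 14 over day 1, with no control cells involved, left 1 of 7 measured subunits called. Gria4 was higher and 0 of 7 were lower, beside 17.4% higher and 16.6% lower (34% in all) among the 9823 measured genes. The median log2 ratio of the 7 was 0.08, against -0.02 over all measured genes. Gria2, Gria3 and Grik5 had log2 ratios of 0.11, 0.33 and 0.08, and Gria1, Grik2 and Grik4 had -0.73, -0.36 and -0.96. Apart from Gria4, the summed levels of the 2 days after kainate differed by less than 2-fold in every measured subunit. Without the microglia-rich cells Grik2, Grik4 and Grik5 were called lower as well, with log2 ratios of -2.70, -2.46 and -1.41. That setting kept 9 day 14 cells, and more of all measured genes were called under it, 46.9% in all and 27.97% lower.

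**Figure D3:**
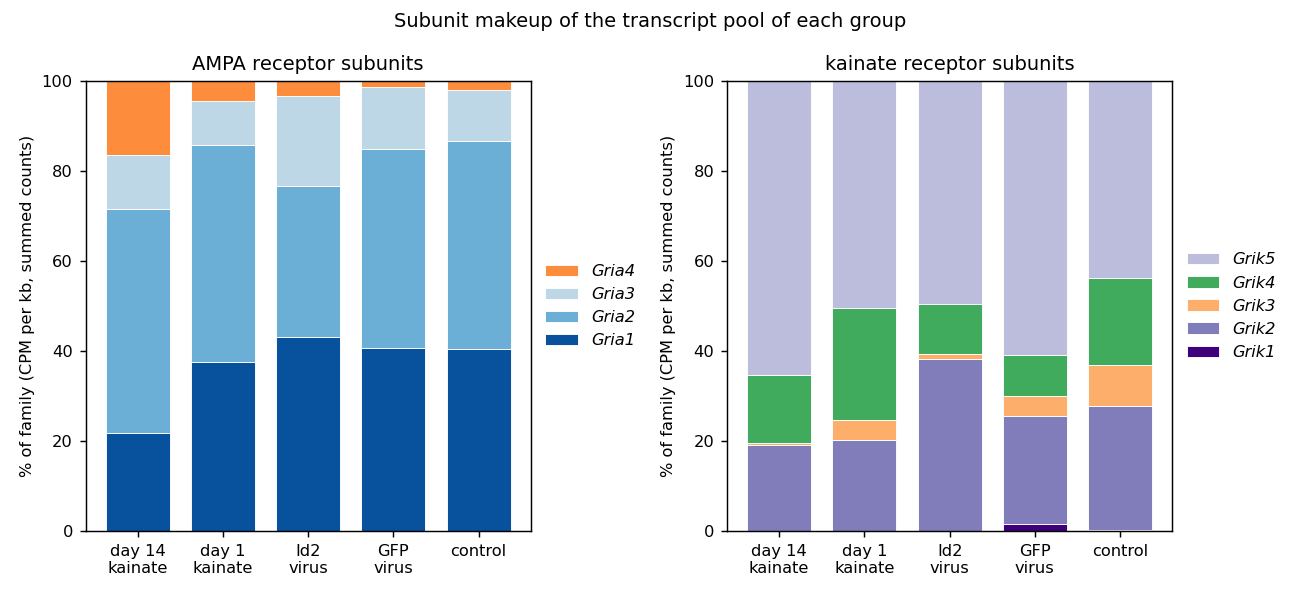
Share of each subunit in the summed level of its family, in percent of CPM per kb of exon, for AMPA subunits (left) and kainate subunits (right), with the groups along the x axis. Gria4 makes up 16.5% of the AMPA family in day 14 cells, against 2.0% in control cells, and Grik5 leads the kainate family in every group.

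The makeup of each family was set out per kb of exon. AMPA subunits summed to 159 CPM per kb at day 14 and 153 CPM per kb at day 1, against 248 CPM per kb in control cells. Of this, Gria2 made up 49.9% at day 14 and 48.03% at day 1, against 46.2% in control cells, so its share differed little while the total was lower. Gria1 made up 21.8% at day 14 and 37.7% at day 1, against 40.5% in control cells. Gria4 made up 16.5% at day 14 and 4.5% at day 1, against 2.0% in control cells, and Gria3 made up 11.9%, 9.8% and 11.3% of the same groups. Per cell, Gria2 led the AMPA subunits in 23 of 29 thinned day 14 cells and 31 of 54 day 1 cells, against 13 of 28 control cells, counting cells with at least 10 AMPA reads. Gria1 led in 2 of 29 day 14 cells and 20 of 54 day 1 cells, against 14 of 28 control cells. Gria4 led in 2 day 14 cells, 0 day 1 cells and 1 control cell.

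The kainate family was the smaller one, with 21.9 CPM per kb at day 14 and 26.8 CPM per kb at day 1, against 55.8 CPM per kb in control cells. Grik5 made up 65.2% at day 14 and 50.5% at day 1, against 43.8% in control cells. Grik2 made up 19.3% at day 14 and 20.3% at day 1, against 27.5% in control cells, and Grik4 15.2% and 24.8%, against 19.2%. Grik3 made up 0.3% at day 14 and 4.4% at day 1, against 9.1% in control cells. The channel-forming subunits together were therefore the smaller portion in each of the 3 groups. A thinned cell had reads of a median of 4 of the 9 subunits at day 14 and 3 at day 1, against 5 in control cells, and no cell had all 9.

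Id2 virus cells over GFP virus cells gave few calls among these genes. Of 7 measured subunits 1, Gria4, was higher and 0 were lower, beside 10.2% higher and 12.6% lower (22.9% in all) among the 7846 measured genes. That count was about the share of all genes, and the Gria4 call rested on 1 cell, which held 90.9% of the Id2 virus reads. Gria4 stood at 44.3 CPM in Id2 virus cells, against 20.3 CPM in GFP virus cells, and without the highest cell of each group at 4.24 CPM in Id2 virus cells, against 12.4 CPM in GFP virus cells, a log2 ratio of -1.35. Its median cell was at 0 CPM in both groups.

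Gria2 was lower and Grik2 higher in Id2 virus cells, both by less than 2-fold. Gria2 had 0, 909.9 and 4207 CPM in its lowest, median and highest Id2 virus cell, against 54.5, 1404 and 3517 CPM in GFP virus cells. Summed, it stood at 1112 CPM in Id2 virus cells, against 1577 CPM in GFP virus cells (log2 ratio -0.50), and within the lower and the higher range of title numbers the log2 ratios were -0.54 and -0.42. Grik2 had 0, 64.01 and 1879 CPM in its lowest, median and highest Id2 virus cell, against 0, 2.83 and 860.4 CPM in GFP virus cells. The 2 groups overlapped throughout, with the median Id2 virus cell well above the median GFP virus cell. Summed, Grik2 stood at 178.5 CPM in Id2 virus cells, against 97.1 CPM in GFP virus cells (log2 ratio 0.87). Within the 43 Id2 virus and 43 GFP virus cells with title numbers up to 95 it stood at 154 CPM, against 109.3 CPM, and within the 28 and 16 cells with higher title numbers at 229 CPM, against 50.1 CPM. A Grik2 read was present in 64.8% of thinned Id2 virus cells (interval 52.5 to 75.8%), against 49.2% of thinned GFP virus cells (interval 35.9 to 62.5%).

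Gria1 differed little in sum over all cells, at 555 CPM in Id2 virus cells, against 567 CPM in GFP virus cells (log2 ratio -0.03). Its lowest, median and highest cell had 0, 281 and 4347 CPM in Id2 virus cells, against 0, 422 and 2532 CPM in GFP virus cells. The ranges of title numbers went opposite ways, with log2 ratios of 0.17 up to 95 and -0.61 above. Gria3 stood at 423 CPM in Id2 virus cells, against 309 CPM in GFP virus cells (log2 ratio 0.45), and was the leading AMPA subunit per kb in 16 of 68 thinned Id2 virus cells, against 4 of 57 GFP virus cells. Gria3 made up 20.1% of the AMPA family per kb in Id2 virus cells, against 13.6% in GFP virus cells, and Gria2 33.5%, against 44.1%. Grik5 stood at 90.2 CPM, against 96.2 CPM, and Grik4 at 23.5 CPM, against 16.7 CPM, both less than 2-fold apart. Within the higher title numbers Grik4 was called, at 37.8 CPM in Id2 virus cells, against 5.22 CPM in GFP virus cells (log2 ratio 2.64), with 1 cell holding 66.4% of those Id2 virus reads, and up to 95 its log2 ratio was -0.22. Grik3, at 3.18 CPM in Id2 virus cells, against 12.47 CPM in GFP virus cells, was not measured in this pair.

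GFP virus cells, against control cells, had 0 of 8 measured subunits higher and 3 lower, beside 19.3% higher and 13% lower (32.3% in all) among the 8085 measured genes. The count of lower subunits was thus above the background and that of calls in all was near it. The 3 were Grik2 at 97.1 CPM in GFP virus cells, against 203 CPM in control cells, Grik3 at 12.47 CPM, against 45.3 CPM, and Grik4 at 16.7 CPM, against 63.9 CPM, log2 ratios of -1.06, -1.78 and -1.87. The same 3 had log2 ratios of -1.84, -4.88 and -1.64 at day 14 over control, a comparison that uses the same control cells. Without the highest cell of each group the log2 ratios were -0.81, -0.66 and -2.12, so Grik2 and Grik3 lost their calls there and Grik4 kept its own, and against the 9 controls with other titles Grik4 had a log2 ratio of 0.15. The 4 AMPA subunits had log2 ratios between -0.61 and 0.16. The family sums were 229.9 CPM per kb for AMPA subunits in GFP virus cells, against 248 CPM per kb in control cells, and 30.7 CPM per kb for kainate subunits, against 55.8 CPM per kb.

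**Figure D4:**
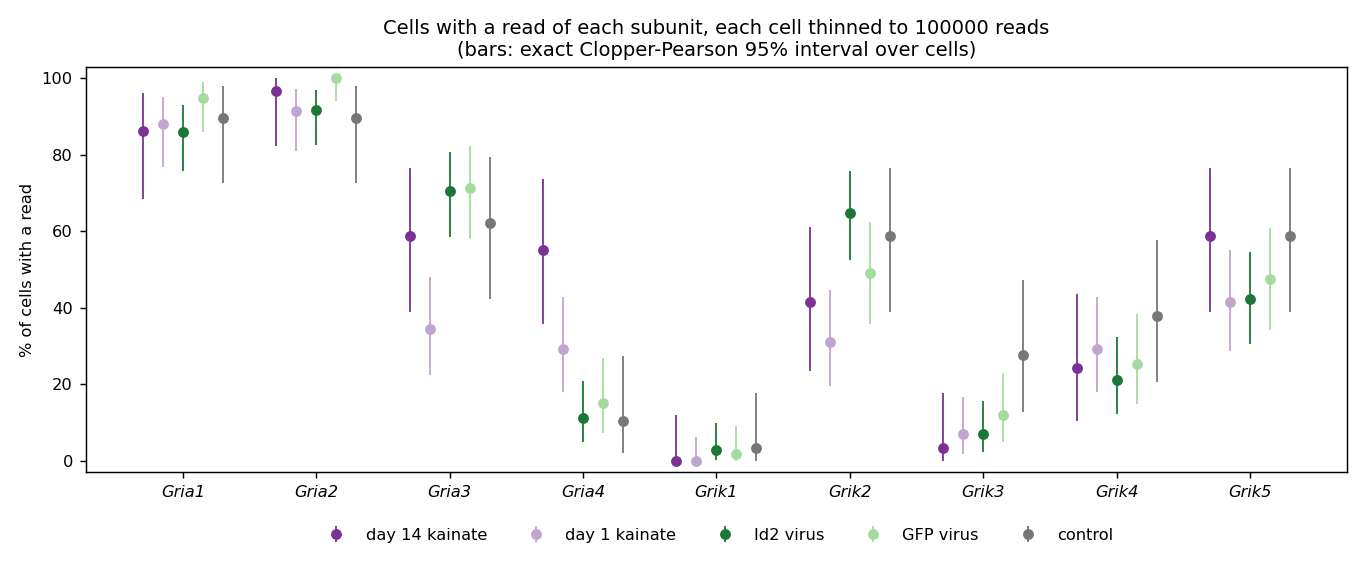
Percent of cells with at least 1 read of each subunit (x axis) after each cell was thinned to 100000 reads, for the 5 groups in the order of the legend; bars are exact 95% intervals over cells. Gria4 reaches 55.2% at day 14, against 10.3% in control cells, and Grik1 in at most 3.4% of any group.

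Which genes follow the subunits from cell to cell was asked for the 6 subunits with a read in at least 20% of thinned cells in every group, over 4306 genes. The highest mean Spearman rho over the 5 groups lay below the 0.4 set for naming a gene, so none is named. Weak correlations of sparse counts are no finding.

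Auxiliary subunits of AMPA receptors set their trafficking and gating. Of 13, 7 were measured at day 14 over control, with 0 higher and 1 lower, and 8 at day 1 over control, with 2 higher and 1 lower. Of all measured genes, 23.8% were higher and 15.8% lower at day 14, and 23.2% and 15.2% at day 1. Shisa6, which slows desensitisation, was lower on both days, at 17.7 CPM at day 14 and 34.96 CPM at day 1, against 91.01 CPM in control cells. Gsg1l, which reduces AMPA receptor conductance, was higher at day 1, at 132 CPM, against 21.7 CPM in control cells, and so was Cacng3, a transmembrane regulatory protein, at 219 CPM, against 106.9 CPM. At day 14 over day 1, Cnih2, a cornichon that promotes surface delivery and slow decay, was higher (446 CPM, against 215 CPM at day 1), while Gsg1l and Cacng3 were lower, with log2 ratios of -3.02 and -1.71, beside 17.4% higher and 16.6% lower among all genes measured in that pair. Cnih2 stood at 409 CPM in control cells. Cnih3 had 216 CPM at day 14, 185 CPM at day 1 and 128.5 CPM in control cells, Shisa9 had 89.3, 65.3 and 102.7 CPM, and Cacng8 stayed between 1.16 and 1.90 CPM in all 5 groups and was not measured. In Id2 virus over GFP virus cells 0 of 7 measured auxiliary subunits were 2-fold apart, where 22.9% of all measured genes were, and likewise 0 of 7 in GFP virus over control cells, where 32.3% were.

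**Figure D5:**
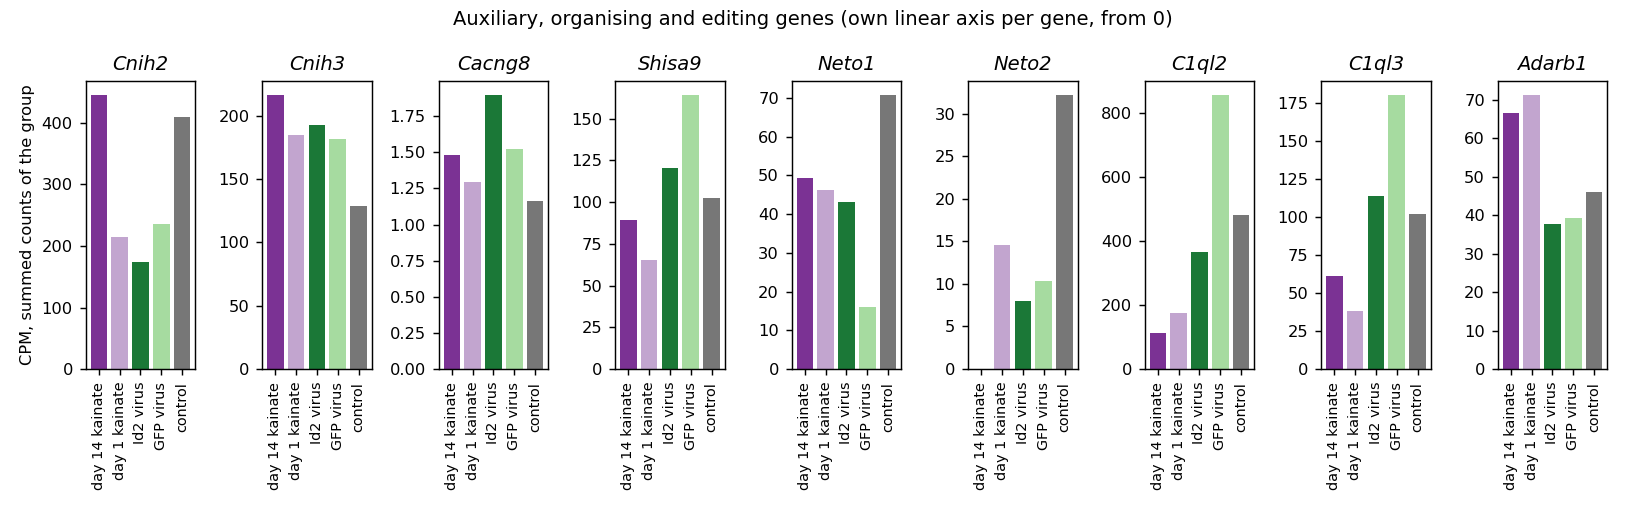
Summed CPM (linear y axes from 0, one per gene) of auxiliary, organising and editing genes in the 5 groups, without error bars since each group is 1 sample. C1ql2 is lowest in the day 14 cells and highest in the GFP virus cells, and Adarb1 lies between 37.7 and 71.3 CPM in all groups.

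C1ql2 and C1ql3 are secreted by mossy fibre terminals and gather kainate receptors at their synapses, and Neto1 and Neto2 are auxiliary subunits of kainate receptors. C1ql2, which is also on the list of granule cell markers, stood at 112.7 CPM at day 14 and 176 CPM at day 1, against 482 CPM in control cells, and was called lower on both days (log2 ratios -2.09 and -1.45). It was also lower with Id2, at 366 CPM in Id2 virus cells, against 857 CPM in GFP virus cells (log2 ratio -1.22). C1ql3 was called lower at day 1, at 38.1 CPM, against 102.2 CPM in control cells, and was not called at day 14, at 61.2 CPM (log2 ratio -0.73). In Id2 virus cells C1ql3 had 113.9 CPM, against 181 CPM in GFP virus cells. Neto1 was higher in Id2 virus cells, at 43.01 CPM, against 15.96 CPM in GFP virus cells (log2 ratio 1.38), and lower in GFP virus cells over control cells, which had 70.8 CPM (log2 ratio -2.08). At day 14 Neto1 stood at 49.4 CPM and at day 1 at 46.1 CPM. Neto2 had 0.04 CPM at day 14 and 14.6 CPM at day 1, against 32.2 CPM in control cells, and was not measured in any comparison.

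Of the 3 genes of the adenosine editing family, Adarb1, which encodes ADAR2, was not called in any comparison. It stood at 66.4 CPM at day 14, 71.3 CPM at day 1, 37.7 CPM in Id2 virus cells, 39.2 CPM in GFP virus cells and 46.1 CPM in control cells. Adarb2, a brain relative without known editing activity, was lower at day 14, at 1.84 CPM, and at day 1, at 24.3 CPM, against 54.1 CPM in control cells (log2 ratios -4.28 and -1.12). Adar differed by less than 2-fold in each comparison. Whether the pore codon shown above was edited to a different extent cannot be read from these levels.

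The lists that follow are read against the shares of all measured genes called: 39.6% (23.8% higher, 15.8% lower) at day 14 over control, 38.4% (23.2% and 15.2%) at day 1 over control, 34% (17.4% and 16.6%) at day 14 over day 1, 22.9% (10.2% and 12.6%) in Id2 virus over GFP virus cells and 32.3% (19.3% and 13%) in GFP virus over control cells. Of 7 factors for AMPA receptor assembly in the endoplasmic reticulum, 0 were higher and 3 lower at day 1 over control (Cpt1c, Porcn and Abhd12, log2 ratios -1.59, -1.29 and -1.16), and 0 of 7 were called at day 14 over control. Day 14 over day 1 had 2 of 7 higher, Cpt1c at 1.91 and Abhd12 at 1.00. In Id2 virus over GFP virus cells Sacm1l was higher and Frrs1l lower, with log2 ratios of 1.33 and -1.04, and Sacm1l was lower in GFP virus over control cells, at -1.32. Scaffold and trafficking genes were measured for 13 of 14 genes at day 14 over control, where Grip2 and Grip1, adaptors that bind the tails of AMPA subunits, were higher (log2 ratios 2.54 and 2.13) and the anchor Akap5 and the pentraxin Nptx1 were lower (-1.86 and -1.50). At day 1 over control 3 of 12 were higher and 1 was lower, with Grip1 at 1.35 and Dlg4, which encodes PSD-95, at -1.43. At day 14 over day 1, Grip2 was higher (1.65) and 6 of 13 were lower, led by Akap5 and Nptx1 at -1.69 and -1.68. In Id2 virus over GFP virus cells 1 of 12 was higher (Grip2, 1.96) and 4 were lower, among them Akap5 at -2.27. In GFP virus over control cells 2 of 12 were higher (Grip1 at 2.47 and Akap5 at 1.31) and Nptx2 was lower, at -2.66. Among 9 NMDA and delta subunits, 0 of 6 measured were called at day 1 over control, and 2 of 6 were lower at day 14, Grid1 and Grin2a, with log2 ratios of -3.67 and -1.16. Grid1, which encodes a delta subunit, was also lower at day 14 over day 1 (1 of 6 measured, -3.18) and in GFP virus over control cells (1 of 5 measured, -1.01), and 0 of 5 were called in Id2 virus over GFP virus cells.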

How the data were processed

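Per the labels' protocols, the cytosol of single granule cells was drawn with a patch pipette and libraries were made with Nextera XT. The submitters' processing notes name Trimmomatic, STAR, featureCounts and the build GRCm38. Not given in the sources used here are versions, the annotation, the counting strand and the quality control rule. Deposited were counts, as whole reads of 22800 genes in 291 cells, and a scaled signal, in which the authors multiplied the counts of each of 252 cells by 1 factor. Units were settled on the values, since the names of both tables contradict them. Of 304 labelled samples, 13 had no column and were not used here. Libraries labelled as passing (252) were kept, and 248 of them fall into the 5 groups. The other 39 entered an alternative only.

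Counts were summed per group and scaled to CPM. Log2 ratios were taken after adding 1 CPM, and folds come from CPM without it. Each group is 1 sample, so no test was run. No doublet caller was run, as each library came from 1 pipette. Thinning to 100000 reads left out 2 control cells. Intervals are exact Poisson for levels and Clopper-Pearson for shares, at 95%. Reads carry no molecular identifiers, so intervals of levels cover read counting error only. Those of shares cover the sampling of cells within a group only. Exon lengths, positions and transcripts came from GENCODE M21, and 21906 genes had a length. Named were all 9 subunits, up to 3 called genes with the largest ratio per list of related genes, and C1ql2, C1ql3, Neto1, Neto2, Cnih2, Cnih3, Cacng8, Shisa9 and Adarb1 whatever their values. The subunits and lists were chosen with earlier results of these data known. The ratio step was run on simulated data with known folds, with all cells of a group drawn from 1 profile. That checks the computation only, not ratios that rest on 1 cell or on genes near 0 CPM. Python 3.11.15 with numpy 2.4.6, pandas 2.3.3, scipy 1.17.1 and Biopython 1.88, and edgeR 4.0.16 for TMM factors, were used.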

Additional observations from a re-analysis of the deposited data

How the results depend on the processing

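Gria1 lower at day 14 over control kept its call under every alternative tried (log2 ratio -2.27 to -1.42), and so did Gria4 higher at day 14 over control (1.76 to 4.67) and over day 1 (1.82 to 3.12). Grik2 at day 14 over control ranged between -5.44 and -0.78, and Grik3 between -6.08 and -3.10. An alternative chosen after seeing the data left out the microglia-rich cells and then the highest cell of each gene and group. Of 675 values of single subunits under alternatives, 156 lay within the counting interval of the main ratio and 510 moved outside it. The other 9 changed the sign of a called value and are listed next. A change of sign was counted only where the main value was called. Grik4 at day 14 over control was 0.38 against controls with other titles and 0.24 against GFP virus cells. Grik4 in GFP virus over control cells was 0.15 against controls with other titles, and Grik3 was 0.0068 under the added alternative. Gria4 in Id2 virus over GFP virus cells was -0.40 as a mean over cells, -0.32 after thinning, -1.35 without the highest cell, -2.02 without the deepest 10% of cells and -1.19 under the added alternative. Counts of called subunits follow, with the share of all measured genes called under the same setting in brackets. At day 1 over control the count was 2 (38.4%). It was 4 as a mean over cells (37.8%), after thinning (36.4%) and with the scaled signal (40%). It was also 4 without microglia-rich cells (48.1%), under the added alternative (57.8%) and against controls with other titles (52.3%). Against controls with other titles Gria4 and Grik4 were higher and Gria2 and Gria3 lower. The count was 6 without the deepest cells (40.9%). It was 3 with no filter (28.8%), median-of-ratios factors (38.5%), the highest cell left out (42.9%) or J-titled controls (43.1%). With GFP virus cells as control it was 3 as well (33.6%). There Gria4 and Grik4 were higher, Gria3 was lower and Grik2 and Grik3 were not called. At day 14 over control 5 were called (39.6%). The count was 2 against GFP virus cells (38.1%) and 4 against controls with other titles (54.3%). It was 6 with no filter (28.9%) or without the deepest cells (40.7%). It was 7 without microglia-rich cells (55.4%) or under the added alternative (59.4%). Without microglia-rich cells Gria3 at -1.23 and Grik5 at -2.21 were added. At day 14 over day 1 the count was 1 (34%). It was 2 with no filter (26.1%) or without the highest cell (36.8%), 4 without microglia-rich cells (46.9%) and 6 under the added alternative (55.7%). In Id2 virus over GFP virus cells the count was 1 (22.9%). It was 2 with the scaled signal (23.9%), 0 with 5 CPM added (18.7%) and 3 with no filter (24.5%). Within titles up to 95 it was 2 (32.9%) and within higher titles 3 (42.6%). In GFP virus over control cells the count was 3 (32.3%). It was 1, Grik4, without the highest cell (35.5%) or under the added alternative (48.9%). It was also 1 against controls with other titles (47.5%), where that 1 was Gria4, higher at 1.71. The cause was not tested. Median-of-ratios factors put the median log2 ratio of all measured genes at 0.02 at day 1 over control, against 0.17 by CPM. No paired analysis was possible because, besides titles, cells carry only numbers in order of accession, and no label links cells of different groups among the 5. Where 1 cell holds most reads, the depth of that cell limits the level: 1 cell held 90.9% of the Gria4 reads in Id2 virus cells and 62.8% of the Grik3 reads in control cells.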

Other observations

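A pair of cells of the side opposite to the injection at day 1 entered no comparison. Summed, they had 1758 CPM of Gria2, 382 CPM of Gria1, 0.4 CPM of Gria3, 0 CPM of Gria4, 44.4 CPM of Grik2 and 250.4 CPM of Grik5. A pair of passing libraries labelled low_DG had 1132 CPM of Gria2, 690.5 CPM of Gria1, 329 CPM of Gria3, 0 CPM of Gria4 and 427 CPM of Grik2. The titles of this low_DG pair repeat those of control cells with an L added, and how they relate to those cells was not examined.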
